A study of Mus musculus with 20 samples.

Results

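The genes described here are 9 genes of mature oligodendrocytes and of the myelin they make: Mbp, Mobp, Mog, Mag, Cnp, Mal, Cldn11, Ermn and Opalin. They were taken as a fixed list of symbols, which applies no threshold to any measured value but was drawn up with earlier results of these data known, and are 9 of the 53801 genes in the count tables. All 9 passed the filter on low counts, which left 22181 genes for testing.

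Oligodendrocytes are the glial cells that wrap axons of the central nervous system in myelin, a stack of membrane layers that speeds conduction. Compact myelin is held together by basic and proteolipid proteins, its innermost layer faces the axon through adhesion molecules, its layers are sealed by tight junctions, and cytoskeletal proteins shape its cytoplasmic channels. In the hypothalamus, oligodendrocytes lie mainly along fibre tracts such as the fornix and the optic tract. Their maturation is driven by transcription factors of the SOX and OLIG families and by MYRF, which switches on myelin genes.

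The data are 20 sequencing libraries of rRNA-depleted total RNA from mouse hypothalamus, 5 in each of 4 groups. KO mice carry the deletion of both Magel2 and Ndn (called MADIN in the labels), the genes of 2 MAGE family proteins in the Prader-Willi region, and WT mice are C57BL/6J. KO_night and WT_night were taken 18 h after light on, and KO_day and WT_day 6 h after light on, all under a light-dark cycle with free food and water. The labels give no age or sex, and they do not say whether every library is a different mouse, so the p-values measure only the variation among these samples, which may be technical. Library totals ran from 32066289 to 48697647 counts. The libraries WT_day 4 and 5 carry the same sample name in their titles; their counts differed beyond sampling noise, and they were kept as separate libraries. Time was read from the library titles, except for KO_day 5, whose title does not give it and whose time field says day. In 6 libraries (KO_night 1, 2 and 3, WT_night 1, KO_day 1 and 2) a second label, the time field, gives the other time, and called results of the 9 genes are also given with time taken from that field. Ndn stood at 0.248 to 1.01 TMM-scaled CPM (read counts scaled to library size) in the 10 KO libraries, against 273 ± 31.8 in 9 of the WT libraries (SD, n = 9). The library labelled WT_day 3 went against its label with 31.0 CPM of Ndn, 11.3% of that mean, and with 2.16 CPM of Magel2, against 17.4 ± 1.36 CPM in the other WT libraries. It stayed in its labelled group, and calls that are lost without it are given below with the value without it.

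The promoters of the 9 genes give a first view of what they share. RefSeq windows (GRCm38.p6, from 250 bases before to 50 bases after the start site) were at hand for 8 of them, all except Mbp. The window of Mag (chromosome 7, 30914814 to 30915113, minus strand), the closest to the annotated gene start of 3 windows listed for that gene, and that of Cnp (chromosome 11, 100574689 to 100574988, plus strand) are shown because both genes passed the test at night. The window of Cldn11 (chromosome 3, 31149670 to 31149969, plus strand) is shown as the remaining gene that passed. That of Ermn (chromosome 2, 58052815 to 58053114, minus strand) is shown because Ermn varied least like the others. Each is written 5′ to 3′ on the strand of its gene, with matches to the searched SOX motif ACAAAG and the MYRF motif CTGGCAC, on either strand, in capitals.
Mag: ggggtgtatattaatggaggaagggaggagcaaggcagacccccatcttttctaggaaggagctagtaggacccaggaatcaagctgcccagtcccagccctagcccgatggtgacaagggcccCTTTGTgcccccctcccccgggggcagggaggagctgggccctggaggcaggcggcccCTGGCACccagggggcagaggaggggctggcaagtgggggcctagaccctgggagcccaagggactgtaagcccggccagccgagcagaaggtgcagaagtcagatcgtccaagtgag
Cnp: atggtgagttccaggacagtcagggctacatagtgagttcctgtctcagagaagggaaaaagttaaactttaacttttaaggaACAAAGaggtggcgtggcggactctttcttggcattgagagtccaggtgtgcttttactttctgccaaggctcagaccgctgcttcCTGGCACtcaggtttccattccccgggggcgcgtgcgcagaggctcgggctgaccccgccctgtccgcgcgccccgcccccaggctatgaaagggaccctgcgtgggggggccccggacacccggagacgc
Cldn11: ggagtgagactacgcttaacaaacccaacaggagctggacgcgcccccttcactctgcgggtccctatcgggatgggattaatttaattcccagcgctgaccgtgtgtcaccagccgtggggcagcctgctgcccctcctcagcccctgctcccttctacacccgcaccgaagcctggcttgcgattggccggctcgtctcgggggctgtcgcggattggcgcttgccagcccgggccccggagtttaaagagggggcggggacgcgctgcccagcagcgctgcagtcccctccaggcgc
Ermn: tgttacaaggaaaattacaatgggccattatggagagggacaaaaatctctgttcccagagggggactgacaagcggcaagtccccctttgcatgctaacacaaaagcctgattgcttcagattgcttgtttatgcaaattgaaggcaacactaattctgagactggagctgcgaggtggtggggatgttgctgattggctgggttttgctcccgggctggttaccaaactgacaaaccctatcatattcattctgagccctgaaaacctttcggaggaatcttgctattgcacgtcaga

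In these windows the SOX motif ACAAAG, read as CTTTGT on the other strand, was present in 4 of 8 genes, namely Mag, Cnp, Mobp and Opalin, against 18.7% of 32817 mouse promoters of the same length. The MYRF motif CTGGCAC, read as GTGCCAG on the other strand, was present in 3 of 8, namely Mag, Cnp and Opalin, against 5.01% of all promoters. In Mag the SOX match starts 126 bases and the MYRF match 68 bases before the start site, and in Cnp they start 167 and 81 bases before it. The palindromic E-box CAGCTG was found only in Opalin (16.3% of all promoters), and AACAAT (10.7%) and TATAAA (13.6%) were found in none of the 8. None of the motifs searched lies in the windows of Cldn11, Ermn, Mal or Mog. These matches describe letters only, and no binding was measured.

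All 9 genes were detected in every library. Mean CPM per kilobase of exon over the 20 libraries put Mbp first at 104.9, followed by Cnp at 67.2, Mal at 50.8, Cldn11 at 43.9, Mag at 21.9, Mobp at 18.0, Ermn at 13.2, Mog at 13.2 and Opalin at 4.99. Counts may include intronic reads, and per kilobase of whole gene span the order changes, with Cnp at 14.5 ahead of Mbp at 8.04, whose gene is the longest of the 9. The lowest count behind any value was 392, for Opalin, and the highest 41882, for Mbp. The 6 markers of Schwann cells and peripheral myelin summed to between 50.3 and 59.9 CPM per library. Egr2, a transcription factor of Schwann cells, had a median of 0.430 CPM and Prx, a protein of Schwann cell myelin, 0.905 CPM, while Drp2, which the brain also expresses, had 38.8 CPM and Pmp22 12.6 CPM. Hypothalamic peptide genes were present throughout, with Pmch, the gene of melanin-concentrating hormone, at no less than 210.5 CPM. The pituitary markers, which would come from attached gland, summed to between 30.4 and 868.7 CPM and so varied widely between libraries.

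At night, 3 of the 9 genes rose in KO: Mag, Cnp and Cldn11. All 9 had a higher fitted level in KO_night than in WT_night, with a median log2 change of 0.22 and single values from 0.11 to 0.32. Among all 22181 genes 11.9% passed in either direction and 5.18% rose at night. A higher fitted level in KO_night was found for 51.0% of all genes, and their median log2 change was 0.0051. An unadjusted p under 0.05 was found for 6 of the 9 and for 29.9% of all genes. In whole-tissue RNA, a change in the number of cells of a type and a change in RNA per cell cannot be told apart, here and below.

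**Figure D1:**
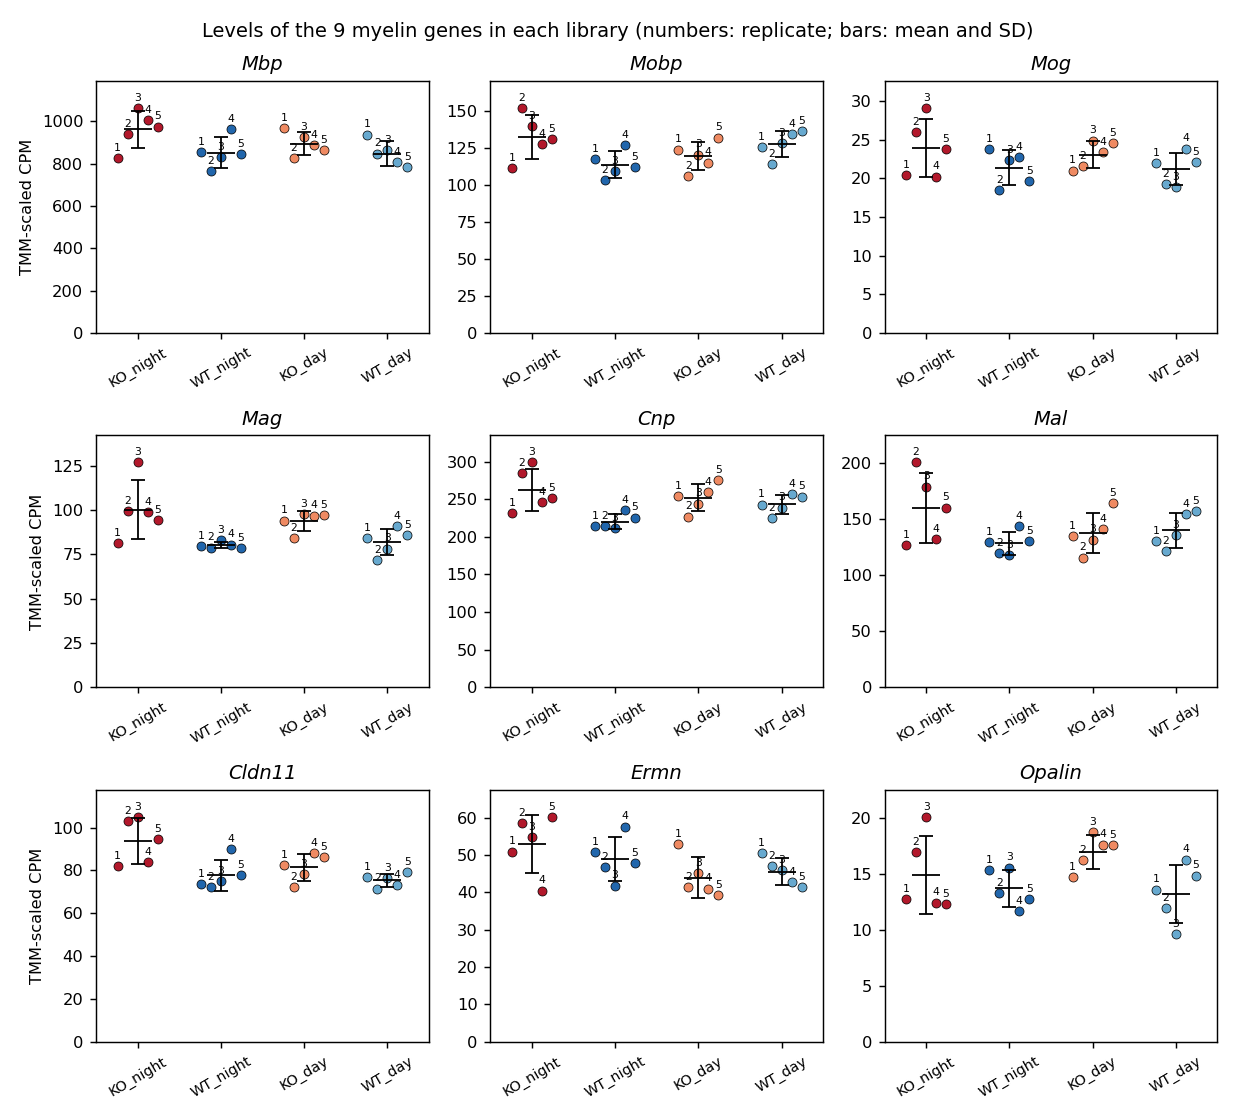
TMM-scaled CPM (vertical axes, from 0) of each of the 9 genes in each library, by group, with replicate numbers beside the points and the mean and SD as bars. KO_night 2 and 3 are the highest points for several genes, and KO and WT overlap for every gene at both times.

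Among the proteins of compact myelin and its adhesion, Mag changed most. Mag (ENSMUSG00000036634, chromosome 7, 30899176 to 30914873 on GRCm38) encodes the myelin-associated glycoprotein, a sialic acid-binding adhesion molecule of the layer next to the axon. It stood at 81.2, 99.6, 126.9, 99.0 and 94.3 CPM in the 5 KO_night libraries, against 79.5, 78.9, 82.9, 80.6 and 78.6 CPM in the 5 WT_night libraries. The WT_night values lie close together, and 4 of 5 KO_night libraries were above all of them, with KO_night 1 inside their range. The log2 change was 0.32 ± 0.08 (SE), a 1.25-fold difference (edgeR adjusted p = 0.0204).

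Mobp (ENSMUSG00000032517, chromosome 9, 120149707 to 120181484), a small basic protein of the cytoplasmic faces of compact myelin, had 111.3, 152.0, 139.7, 127.7 and 130.8 CPM in KO_night, against 117.2, 103.1, 109.3, 127.0 and 111.9 CPM in WT_night. Again 4 of 5 KO_night libraries exceeded every WT_night library, but the change of 0.22 ± 0.07 missed the threshold (edgeR adjusted p = 0.0520). With the alternative test DESeq2, which called 14.9% of all genes at night, Mobp passed. Mobp shares 79 exonic bases with Gm38642 on the same strand, which had 4.44% as many counts. Mbp (ENSMUSG00000041607, chromosome 18, 82475146 to 82585637), which encodes the basic protein that zips the membrane layers together, averaged 962 ± 88.7 CPM in KO_night and 852 ± 71.9 CPM in WT_night (SD, n = 5 each). Its change of 0.18 ± 0.07 did not pass (edgeR adjusted p = 0.0881), and 3 of 5 KO_night libraries lay above all WT_night libraries. Mog (ENSMUSG00000076439, chromosome 17, 37010743 to 37023398), a glycoprotein of the outermost myelin surface, averaged 23.9 ± 3.77 CPM in KO_night and 21.4 ± 2.23 CPM in WT_night, with a change of 0.16 ± 0.09 (edgeR adjusted p = 0.245).

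Of the membrane, junction and cytoskeletal genes, Cnp and Cldn11 rose. Cnp (ENSMUSG00000006782, chromosome 11, 100574904 to 100591729) encodes a cyclic nucleotide phosphodiesterase that keeps cytoplasmic channels in myelin open. Cnp had 231.9, 284.5, 298.9, 246.6 and 251.7 CPM in KO_night, against 214.2, 214.8, 211.2, 235.6 and 225.6 CPM in WT_night. Here KO_night 2 and 3 were the highest, and KO_night 1 was the only KO_night library inside the WT_night range. The change was 0.25 ± 0.06 (1.19-fold, edgeR adjusted p = 0.0205). Cnp shares 154 exonic bases with Dnajc7, a gene on the opposite strand that had 27.5% as many counts, and since the strand setting of the counting is not given in the sources used here, reads of this stretch cannot be assigned with certainty.

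Cldn11 (ENSMUSG00000037625, chromosome 3, 31149920 to 31164324), the claudin of the tight junctions between myelin layers, had 82.1, 103.1, 105.0, 83.7 and 94.6 CPM in KO_night, against 73.5, 72.3, 75.1, 89.8 and 77.9 CPM in WT_night. The groups overlap through WT_night 4, which exceeded KO_night 1 and 4. The change was 0.27 ± 0.07 (1.21-fold, edgeR adjusted p = 0.0233). Mal (ENSMUSG00000027375, chromosome 2, 127633226 to 127656695), a proteolipid of membrane sorting, had 126.5, 200.3, 178.7, 131.8 and 160.1 CPM in KO_night, against 129.7, 119.6, 117.9, 143.5 and 130.4 CPM in WT_night. Its change of 0.31 ± 0.11 was nearly as large as that of Mag, but the KO_night values were spread widely and it did not pass with edgeR (edgeR adjusted p = 0.0542). Like Mobp, it passed with DESeq2.

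Ermn and Opalin had the smallest changes at night. Ermn (ENSMUSG00000026830, chromosome 2, 58045113 to 58052864), which encodes ermin, an actin-binding protein of late myelination, averaged 53.0 ± 7.85 CPM in KO_night and 48.99 ± 5.83 CPM in WT_night (0.11 ± 0.10, edgeR adjusted p = 0.441). It shares 237 exonic bases with Galnt5 on the opposite strand, which had 20.4% as many counts. Opalin (ENSMUSG00000050121, chromosome 19, 41061710 to 41077113), a transmembrane glycoprotein of oligodendrocytes, averaged 14.9 ± 3.48 CPM in KO_night and 13.7 ± 1.68 CPM in WT_night (0.12 ± 0.13, edgeR adjusted p = 0.582).

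The night result rested on few libraries. Without KO_night 2, KO_night 3, WT_night 1 or WT_night 3, none of the 9 passed, and the log2 changes of Mag, Cnp and Cldn11 over all 20 such fits ran from 0.22 to 0.39, 0.20 to 0.29 and 0.23 to 0.32. In these 4 fits the share of all genes that passed was also lower, at 1.32% without KO_night 2, 2.29% without KO_night 3, 1.28% without WT_night 1 and 0.546% without WT_night 3. With time taken from the time field the count was again 0, with changes of 0.21, 0.14 and 0.08, and 4 of all 22407 genes tested passed. Among the 14 libraries whose time labels agree it was 0, with changes of 0.27, 0.17 and 0.18, and 6 of all 22820 genes tested passed.

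**Figure D2:**
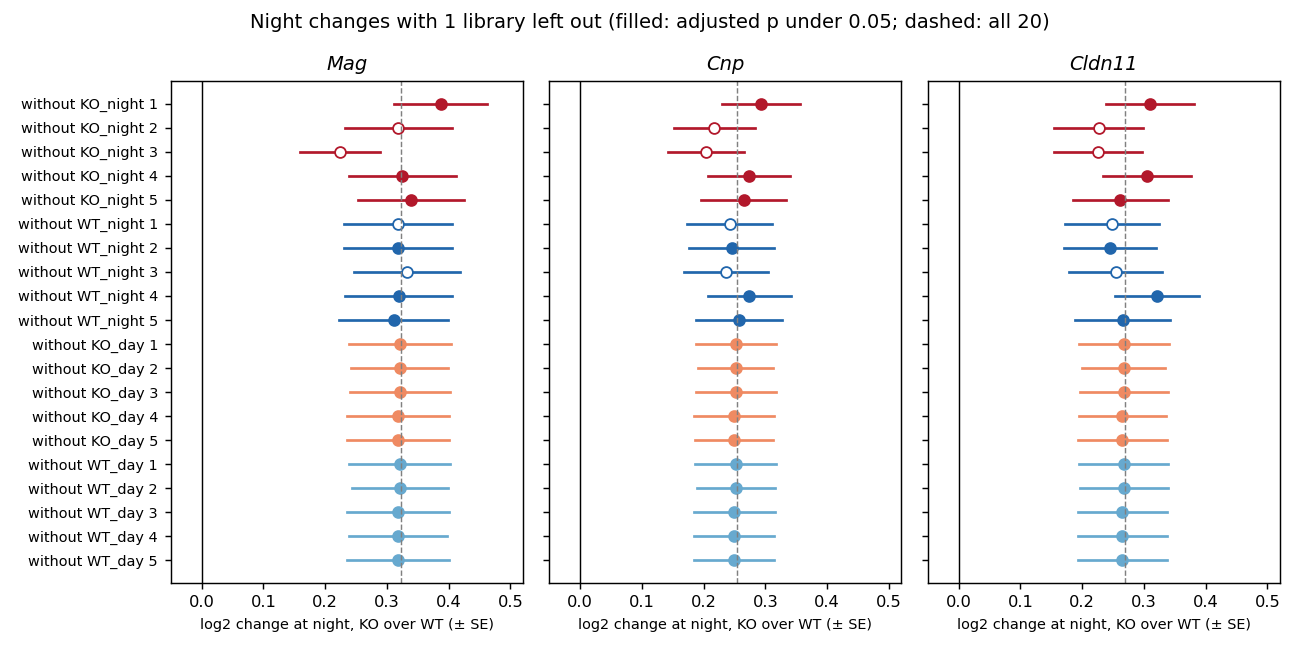
Log2 change at night of Mag, Cnp and Cldn11, KO over WT, with its SE, after leaving out each of the 20 libraries (rows); filled points have an adjusted p under 0.05 and the dashed line is the value with all 20. All points lie above 0, and open points appear without KO_night 2, KO_night 3, WT_night 1 and WT_night 3.

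By day, none of the 9 genes passed with edgeR or with DESeq2, and 2 had an unadjusted edgeR p under 0.05. Among all genes 0.113% passed by day and 9.62% had an unadjusted p under 0.05. Of the 9, 6 had a higher fitted level in KO_day and 3 (Mobp, Mal and Ermn) a lower one, with a median log2 change of 0.08. A higher fitted level in KO_day was found for 47.8% of all genes. Mag stood at 94.1, 84.1, 97.7, 96.9 and 97.4 CPM in KO_day, against 84.4, 71.8, 78.2, 90.9 and 85.8 CPM in WT_day, so that 4 of 5 KO_day libraries were above all WT_day libraries. The change of Mag by day was 0.19 ± 0.08, with a 95% interval from 0.03 to 0.36 (edgeR adjusted p = 0.429). Opalin had the largest day value of the 9, with 14.7, 16.2, 18.7, 17.6 and 17.6 CPM in KO_day, against 13.6, 11.9, 9.61, 16.3 and 14.8 CPM in WT_day (0.36 ± 0.13, edgeR adjusted p = 0.337). The lowest of these WT_day values is that of WT_day 3, the library that goes against its label, and without it the change was 0.27. Mobp averaged 119 ± 9.71 CPM in KO_day and 128 ± 8.86 CPM in WT_day (SD, n = 5 each), a log2 change of -0.10 ± 0.07 (edgeR adjusted p = 0.747).

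**Figure D3:**
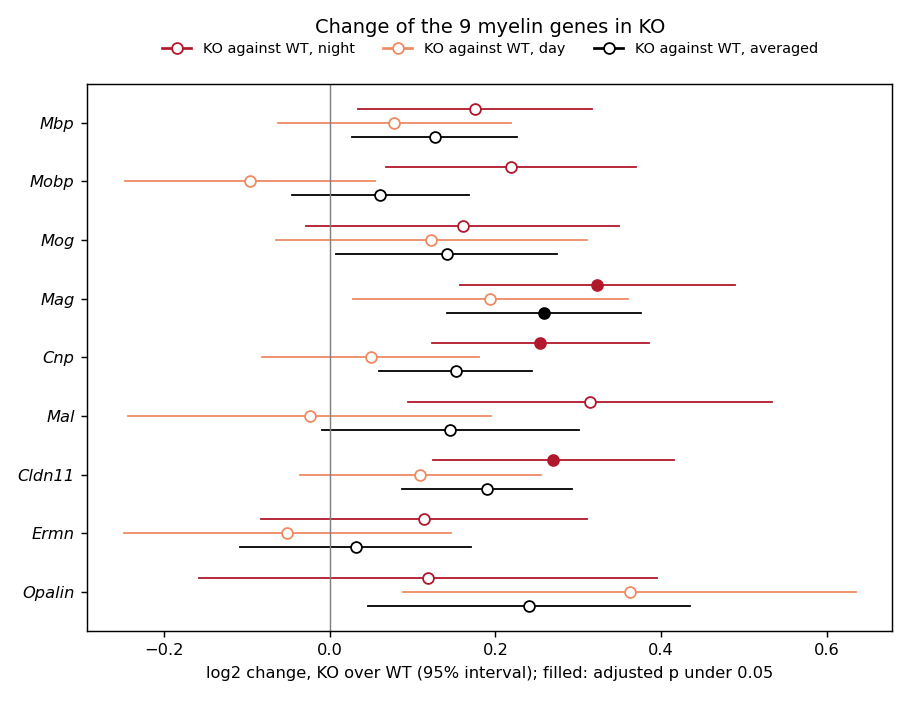
Log2 change of each of the 9 genes, KO over WT, at night, by day and averaged over both times, with 95% intervals from the edgeR fit; filled points have an adjusted p under 0.05. The filled points are Mag, Cnp and Cldn11 at night and Mag in the average.

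Averaged over both times, 1 of the 9 genes rose in KO, against 1.31% of all genes that passed in either direction and 0.789% that rose. It was Mag, with a log2 change of 0.26 ± 0.06 (1.20-fold, edgeR adjusted p = 0.0300), and 0.25 without WT_day 3 (edgeR adjusted p = 0.0459). All 9 had a higher fitted level in KO, where 49.6% of all genes had one, and 6 of 9 had an unadjusted p under 0.05, against 19.6% of all genes. Their median log2 change was 0.15, against -0.001 over all genes. Cldn11 at 0.19 ± 0.05 (edgeR adjusted p = 0.0545) and Cnp at 0.15 ± 0.04 (edgeR adjusted p = 0.0773) came next, and Ermn at 0.03 ± 0.07 was lowest. Both Cldn11 and Cnp passed with DESeq2, which called 4.03% of all genes in the average. The Mag call was lost without any one of KO_night 3, WT_night 1, KO_day 4, KO_day 5 and WT_day 2, with changes from 0.21 to 0.29 over the 20 fits, and with time from the time field (0.25, edgeR adjusted p = 0.0817). Of all genes, 47 to 106 passed in those 5 fits and 30 with the time field, against 291 with all 20 libraries. It held among the 14 libraries whose time labels agree (0.26, edgeR adjusted p = 0.0266).

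The KO change was not shown to differ between night and day for any of the 9. The interaction of genotype and time passed for 0 of 9 genes with edgeR and with DESeq2, and 3 of 9 had an unadjusted edgeR p under 0.05. No gene of all 22181 passed it with edgeR (0%), where 22.1% had an unadjusted p under 0.05, while DESeq2 called 858 genes. Mobp had the smallest p, with a change that was 0.31 ± 0.10 higher at night than by day (edgeR adjusted p = 0.0971), followed by Cnp at 0.20 ± 0.09 and Mal at 0.34 ± 0.15. Without WT_night 4, Mobp passed this test at 0.34 (edgeR adjusted p = 0.0475), in a fit where 1555 genes (6.95% of all tested) passed it.

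Single libraries carried much of the variation. With each gene centred on its own mean over the 20 libraries, the mean log2 deviation of the 9 genes was 0.34 in KO_night 3 and 0.27 in KO_night 2, the only libraries in which all 9 genes stood above their own mean. It was 0.11 in KO_night 5, -0.02 in KO_night 4 and -0.09 in KO_night 1, so the KO_night group was not uniform. The lowest were WT_night 2 at -0.18 and WT_day 2 at -0.16, in which all 9 stood below their own mean. KO_day 2 was at -0.11, while the other 4 KO_day libraries lay between 0.04 and 0.09. KO_night 4 departed from the common pattern in another way, with 1005 CPM of Mbp, the second highest of the 20 libraries, beside low values of Mog (20.2 CPM) and Ermn (40.5 CPM). Mitochondrial rRNA took 14.99% of the counts in KO_night 4, against 18.4% to 22.6% in the other 19 libraries, and the part of this in its values was not tested.

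**Figure D4:**
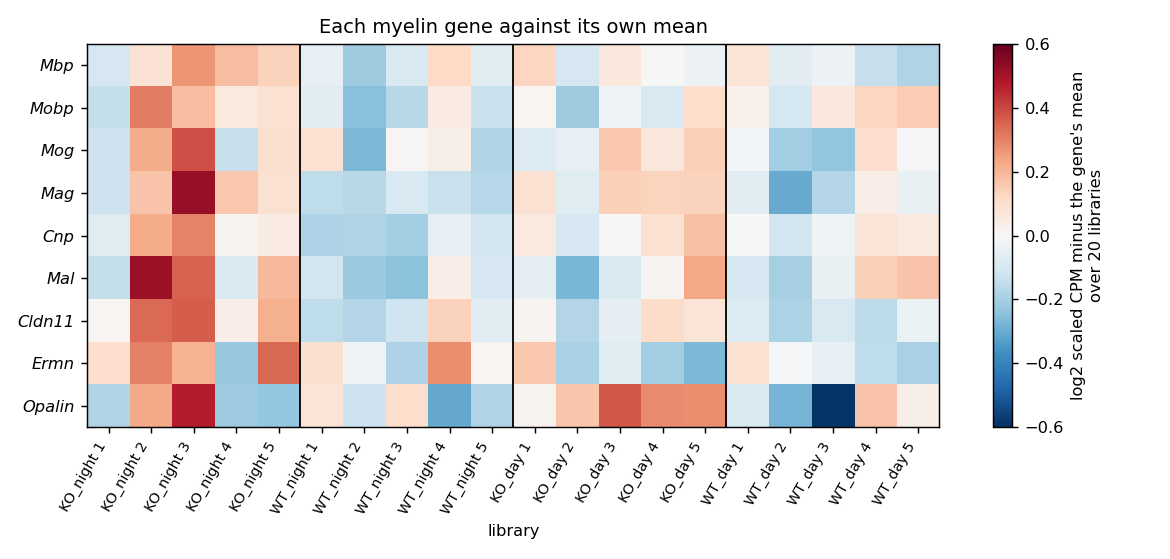
Log2 scaled CPM of each of the 9 genes minus its own mean over the 20 libraries (colour), by library, with KO_night, WT_night, KO_day and WT_day from left to right. KO_night 2 and 3 are above the mean for all 9 genes, and WT_night 2 and WT_day 2 are below it for all 9.

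Other markers moved with these libraries. KO_night 2 and 3 had the highest summed astrocyte markers of the 20 libraries (8 genes, 2963 and 2957 CPM) and the highest summed neuron markers (8 genes, 2474 and 2469 CPM). Over the groups, the astrocyte sum was 2637 to 2963 CPM in KO_night and 2442 to 2795 CPM in WT_night, and the neuron sum 2245 to 2474 CPM in KO_night and 2244 to 2391 CPM in WT_night. At night 2 of 8 astrocyte markers and 3 of 8 neuron markers rose in KO and none of either list fell, where 5.18% of all genes rose. Of the 8 neuron markers 2 were lower in KO at night without passing, with log2 changes down to -0.36. The hypothalamus markers (8 genes) summed to 909 to 1103 CPM in KO_night and 676 to 866 CPM in WT_night, without overlap, and 2 of the 8 rose at night, Avp and Oxt, the genes of vasopressin and oxytocin. By day that sum was 862 to 1072 CPM in KO_day and 839 to 982 CPM in WT_day. The thalamus markers (4 genes) summed to 280 to 394 CPM in KO_night and 343 to 597 CPM in WT_night, with the highest values in WT_night 3, 1 and 2. Only 1 of these 4 genes, Rora, was lower in KO at night, and it fell (log2 change -0.45). The other 3 had a higher fitted level in KO_night, so the sum does not stand for the list. The cortex and hippocampus markers (4 genes) summed to 3.37 to 11.8 CPM in KO_night and 3.27 to 4.66 CPM in WT_night. The highest values were 11.84 CPM in KO_night 1 and 6.47 CPM in KO_night 2. Of these 4 genes 3 were higher and 1 lower in KO at night, and 1 rose, Slc17a7, whose median was 0.451 CPM. The level of genes also changed with gene length. Its slope on the log2 scale per unit of log10 gene length was from -0.07 to -0.02 in the 5 KO_night libraries, with the lowest in KO_night 2, and from -0.01 to 0.10 in the 5 WT_night libraries, with the highest in WT_night 3. It was from -0.04 to 0.05 in KO_day and from -0.02 to 0.0013 in WT_day. The part of these differences in the myelin gene values was tested for length only. With the trend with length removed, Mag (0.28), Cnp (0.22) and Cldn11 (0.22) passed at night, with edgeR adjusted p of 0.0381, 0.0317 and 0.0402. These changes were smaller than the 0.32, 0.25 and 0.27 of the main fit. Mbp passed as well (0.28, edgeR adjusted p = 0.0330), with a change larger than its 0.18 in the main fit. Among all genes 5.3% passed at night with the trend removed, against 11.9% in the main fit. The part of the marker sums was not tested.

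Between night and day, none of the 9 genes passed, in the average over both genotypes, in KO or in WT, with edgeR or with DESeq2. In each of the 3 comparisons 2 of the 9 had an unadjusted edgeR p under 0.05, and among all genes 0.117% passed in the average, 0.0721% in KO and 0.275% in WT. The unadjusted shares of all genes were 11.8%, 17.7% and 15.9%. Ermn had the largest average change, 0.19 ± 0.07 higher at night (edgeR adjusted p = 0.261), with 0.27 ± 0.10 in KO and 0.10 ± 0.10 in WT. Cldn11 was 0.12 ± 0.05 higher at night in the average (edgeR adjusted p = 0.335). In KO, Cldn11 averaged 93.7 ± 10.6 CPM in KO_night and 81.4 ± 6.35 CPM in KO_day (0.20 ± 0.07, edgeR adjusted p = 0.150). In WT, Mobp averaged 114 ± 9.01 CPM in WT_night and 128 ± 8.86 CPM in WT_day (-0.17 ± 0.07, edgeR adjusted p = 0.267), and Cnp 220 ± 10.1 CPM in WT_night and 243 ± 12.6 CPM in WT_day (-0.14 ± 0.06, edgeR adjusted p = 0.268). In the average the 95% intervals of the 9 genes ended between -0.26 and 0.33. The KO and WT comparisons with day share libraries with the genotype comparisons above.

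The 9 genes did not vary as 1 block. Pearson correlations of log2 level over the 20 libraries, which share depth and dissection, ran from -0.19 to 0.90 over the 36 pairs, with a median of 0.59 and 23 pairs over 0.5. Mobp and Mal were the closest pair (0.90), followed by Cnp and Mal (0.88) and Mag and Cnp (0.84). Mog and Opalin, 2 surface glycoproteins, stood at 0.77. Ermn and Opalin were the farthest apart (-0.19), and Ermn reached only 0.10 with Mag and 0.17 with Cnp. Without KO_night 2 and 3 the median was 0.42 and 13 pairs were over 0.5, with Mobp and Mal still at 0.85. Opalin and Ermn also differed in their group means, with 16.96 ± 1.55 CPM of Opalin but 44.0 ± 5.48 CPM of Ermn in KO_day, the highest group mean of Opalin and the lowest of Ermn.

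Among 24 other genes of mature oligodendrocytes, 23 could be tested. In the average 3 of them rose in KO, none fell, and 19 had a higher fitted level, with a median log2 change of 0.13. Among all genes 0.789% rose in the average and 49.6% had a higher fitted level. Tmem88b, a transmembrane protein, averaged 31.0 ± 4.46 CPM in KO_night, 27.3 ± 1.89 CPM in WT_night, 30.7 ± 1.99 CPM in KO_day and 25.3 ± 2.02 CPM in WT_day (0.23 ± 0.05, edgeR adjusted p = 0.0372). Gpr37, a receptor of the oligodendrocyte lineage, rose by 0.20 ± 0.05 (edgeR adjusted p = 0.0446). By day none of the 23 passed with edgeR or DESeq2, with 9 at an unadjusted edgeR p under 0.05, against 9.62% of all genes. At night 5.18% of all genes rose. Of the 23 it was S1pr5 alone, a sphingosine-1-phosphate receptor of mature oligodendrocytes (0.39 ± 0.12, edgeR adjusted p = 0.0396), and it was named after its value was seen. The calls of these 3 genes depended on single libraries. Tmem88b and Gpr37 each passed in 7 of the 20 fits with 1 library left out, both of them without KO_night 1, KO_night 4, KO_night 5, WT_night 4, KO_day 2 or WT_day 4. Without WT_day 3, the library that goes against its label, neither passed, with 0.22 for Tmem88b (edgeR adjusted p = 0.0642) and 0.20 for Gpr37 (edgeR adjusted p = 0.0653). S1pr5 was lost without KO_night 2, KO_night 3 or any one of the 5 WT_night libraries. With time from the time field, edgeR adjusted p was 0.101 for Tmem88b, 0.1004 for Gpr37 and 0.918 for S1pr5.

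Hapln2, a link protein of the extracellular matrix at nodes of Ranvier, was the member of that list with the smallest interaction p. It averaged 15.7 ± 1.49 CPM in KO_night and 13.4 ± 1.09 CPM in WT_night, but 13.5 ± 1.88 CPM in KO_day and 16.7 ± 0.887 CPM in WT_day. Its interaction of genotype and time was 0.54 ± 0.12 and did not pass with edgeR (edgeR adjusted p = 0.0576). It passed with DESeq2, which called 3.87% of all genes in the interaction. DESeq2 also called Hapln2 as lower at night than by day in WT, where it called 1.49% of all genes and edgeR did not call Hapln2.

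Of 10 transcription factors of oligodendrocytes, 2 rose in KO in the average and none fell, against 0.789% of all genes that rose. Myrf, the factor that switches on myelin genes, averaged 17.2 ± 1.89 CPM in KO_night, 14.7 ± 1.10 CPM in WT_night, 15.7 ± 1.61 CPM in KO_day and 13.6 ± 1.06 CPM in WT_day (0.22 ± 0.06, edgeR adjusted p = 0.0468). Sox8, a SOX factor of the lineage, rose by 0.18 ± 0.05 (edgeR adjusted p = 0.0484). Myrf passed in 6 and Sox8 in 7 of the 20 fits with 1 library left out, both of them without KO_night 1, KO_night 5, WT_night 4, KO_day 2 or WT_day 4, and neither passed with time from the time field (edgeR adjusted p = 0.1004 and 0.115). Without WT_day 3 the changes were 0.23 for Myrf (edgeR adjusted p = 0.0609) and 0.19 for Sox8 (edgeR adjusted p = 0.0523). None of the 10 passed by day or at night alone with edgeR, with 4 at an unadjusted edgeR p under 0.05 each time, and DESeq2 called none by day and Myrf at night. Among all genes 9.62% had such an unadjusted p by day and 29.9% at night. Nkx6-2, a homeodomain factor of maturing oligodendrocytes, was the 1 gene of this list that passed between night and day with edgeR. It averaged 36.6 ± 2.09 CPM in KO_night and 31.7 ± 2.47 CPM in KO_day, and 34.5 ± 3.74 CPM in WT_night and 26.4 ± 2.67 CPM in WT_day. It rose at night by 0.30 ± 0.05 in the average (edgeR adjusted p = 0.0159) and by 0.39 ± 0.07 in WT (edgeR adjusted p = 0.0262). The average call held in all 20 fits with 1 library left out, and the WT call was lost without WT_night 2, WT_day 1, WT_day 3 (0.34, edgeR adjusted p = 0.0739) or WT_day 5. With time from the time field neither passed, at 0.19 (edgeR adjusted p = 0.257) and 0.33 (edgeR adjusted p = 0.297). Among the 14 libraries whose time labels agree both passed, at 0.33 (edgeR adjusted p = 0.0441) and 0.39 (edgeR adjusted p = 0.0484). Of all genes 0.117% passed in the average and 0.275% in WT with all 20 libraries, and 0.552% and 0.456% with agreeing labels.

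Of 12 genes of myelin lipid synthesis, 2 rose in KO in the average, none fell and all 12 had a higher fitted level, with a median of 0.11. Among all genes 0.789% rose and 49.6% had a higher fitted level. Fasn, the fatty acid synthase, which cells other than oligodendrocytes also express, averaged 260 ± 16.6 CPM in KO_night, 228 ± 13.7 CPM in WT_night, 246 ± 14.9 CPM in KO_day and 202 ± 9.86 CPM in WT_day. It rose in KO in the average (0.24 ± 0.04, edgeR adjusted p = 0.00367), by day (0.28 ± 0.05, edgeR adjusted p = 0.0310) and at night (0.19 ± 0.05, edgeR adjusted p = 0.0287). The average call of Fasn held in all 20 fits with 1 library left out and with time from the time field (0.22, edgeR adjusted p = 0.0230). Its night call was lost without KO_night 2, KO_night 3, WT_night 1 or WT_night 3, and its day call without KO_day 3, 4 or 5, WT_day 1, 2 or 5, or WT_night 2. The genes of lipids particular to myelin did not pass, with Fa2h, which makes hydroxylated sphingolipids, at 0.17 (edgeR adjusted p = 0.0877) in the average.

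Among earlier stages of the lineage, 2 of 7 precursor genes passed at night with edgeR, 1 in each direction, against 11.9% of all genes. DESeq2 called these and also Sox6, which was lower in KO. None of 4 genes of newly formed oligodendrocytes passed in any genotype comparison with edgeR or DESeq2, with an unadjusted edgeR p under 0.05 for 1 at night and for none by day or in the average, and with a median of -0.03 at night. Of 7 precursor genes, Cspg4, the NG2 proteoglycan, rose at night (0.21 ± 0.07, edgeR adjusted p = 0.0494), and Lhfpl3, a membrane protein of precursors, fell to 176 ± 16.9 CPM in KO_night, against 238 ± 45.2 CPM in WT_night (-0.43 ± 0.10, edgeR adjusted p = 0.0186). Cspg4 passed in 5 of the 20 fits with 1 library left out (without KO_night 5, WT_night 4, KO_day 1, WT_day 2 or WT_day 4), was at 0.21 without WT_day 3 (edgeR adjusted p = 0.0586), and Lhfpl3 was lost without KO_night 2, KO_night 3, WT_night 1 or WT_night 3. With time from the time field neither passed (edgeR adjusted p = 0.918 for each). The precursor markers together summed to 650 to 735 CPM in KO_night and 701 to 870 CPM in WT_night. Besides Lhfpl3, Sox6 was lower, with 101 ± 13.6 CPM in KO_night and 120 ± 14.8 CPM in WT_night. Of the 7 genes 3 had a higher and 4 a lower fitted level in KO_night, so the sum does not stand for the list.

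The genes whose level was most like the mean of the 9 over the 20 libraries, of 11598 protein-coding genes compared, were Ado, Acsl6, Syt11, Grsf1, Tspan2, Scd2, Mapk9 and Gjc3. Pearson r ran from 0.92 for Ado to 0.86 for Gjc3, and from 0.63 for Mapk9 to 0.84 for Ado without KO_night 2 and 3. Ado averaged 34.8 ± 4.28 CPM in KO_night, 29.9 ± 1.95 CPM in WT_night, 33.6 ± 2.65 CPM in KO_day and 30.5 ± 1.47 CPM in WT_day. Tspan2, a tetraspanin of myelin, averaged 105 ± 18.4 CPM in KO_night, 94.0 ± 4.45 CPM in WT_night, 102 ± 8.84 CPM in KO_day and 93.2 ± 2.66 CPM in WT_day. These correlations are descriptions over libraries of the same 4 groups.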

How the data were processed

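The authors deposited raw counts per gene for each of the 20 libraries, for which the submitters' processing notes name HISAT2, mm10 and featureCounts, from strand-specific paired-end libraries with rRNA depletion, per the labels. Versions, the annotation release and the strand setting are not given in the sources used here. The deposited table of WT_night 3 has no header, and its values were read as counts like those of the other libraries. Of 53801 gene identifiers, 53706 matched GENCODE M21 (GRCm38), the source of symbols, positions and lengths.

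Counts were tested with edgeR 4.0.16 in R 4.3.3 (quasi-likelihood F-test after TMM scaling and filterByExpr, minimum count 10) in 1 fit of 4 group means to all 20 libraries, with Benjamini-Hochberg adjustment over all 22181 genes and a threshold of 0.05. "Rose" and "fell" are used of genes that passed. The test was checked on simulated data. Levels are TMM-scaled CPM with SD, n = 5 per group, and changes are log2 values with SE. Depth gave at least 392 counts for every member value, and the precision this gives is for counting error alone, as reads without molecular identifiers are not independent molecules. The common biological coefficient of variation was 0.0918. Within groups 40 library pairs gave a chi-square per degree of freedom of 5.58 to 53.7, so no pair agreed within sampling noise (6.92 for WT_day 4 and 5, which share a sample name, among 5.58 to 11.9 for all WT_day pairs).

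The members, the gene lists and the tests were chosen with earlier results of these data known. Named genes are the 9 members, up to 4 genes of each list by p in the averaged KO comparison and up to 2 in each comparison of night with day, and the 8 genes most like the members (mean of at least 5 CPM). Alternatives were other scalings, filters of low counts, DESeq2 1.42.0, removal of the trend with gene length, the replicate number as a block, the time field, genotype alone and the omission of each library. Promoter sequences are from RefSeq. Some genes of the lists count toward the totals but are not reported here.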

Additional observations from a re-analysis of the deposited data

Results flagged for a closer look

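Mag in KO_day 2 stood at 84.15 scaled CPM, against 94.1 to 97.7 in the other 4 KO_day libraries, and its distance from them was large for a group of 5 by Dixon's test. It was 1 flag among 36 groups of member values, where chance gives about 1 in 20. All members except Opalin were below their own mean in this library, whose time labels contradict each other. The cause was not tested.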

How the results depend on the processing

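Of 63 member results the 4 called ones (Mag, Cnp and Cldn11 at night, Mag in the average) changed sign under none of the alternatives run. Every member value rested on at least 392 counts, and whether depth or the spread between libraries limits the calls was not tested. Of the 9 members, 1 passed in the average and 3 at night. DESeq2 called 3 (Mag, Cnp and Cldn11) and 5 (these 3, Mobp and Mal), no filter on low counts 2 and 5, and the time field 0 and 0. Libraries with agreeing time labels gave 0 at night, and genotype alone gave 0 in the average, in fits where 6 and 39 of all genes passed. Both sets of night libraries chosen after seeing the data, KO_night 2 and 3 (left out because they were highest, so a smaller change follows) and WT_night 1, 2 and 3 (the night libraries with the highest slopes of level with gene length), left 0 in the average and 0 at night when left out. Few of all genes passed in these fits either. Without KO_night 2 and 3 it was 53 in the average and 23 at night, and without WT_night 1, 2 and 3 it was 19 and 11. With 1 library left out, 0 to 4 passed in the average, 0 to 6 at night and 0 to 1 in the interaction (Mobp, without WT_night 4). Over the same fits the call rate of all genes moved widely, from 47 to 1265 genes in the average, 122 to 4355 at night, 15 to 73 by day and 0 to 1555 in the interaction, against 894, 3307, 166 and 858 with DESeq2. The cause was not tested. A replicate block was fitted too: 30 pairs of libraries sharing a replicate number correlated from -0.167 to 0.303, 3 of them over 0.1, so the numbers do not pair the libraries, and the block left 1 call in the average and 3 at night.

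These uncalled values changed sign. With time from the time field they were, by day between genotypes, 0.030 for Mobp, 0.19 for Mal and 0.059 for Ermn. For night against day they were -0.12 for Mog, -0.067 for Mag, -0.16 for Mal and -0.026 for Cldn11 in the average, -0.075 for Mobp, -0.19 for Mog, -0.11 for Mag, -0.12 for Cnp, -0.21 for Mal and -0.12 for Cldn11 in KO, and -0.054 for Mog and -0.023 for Opalin in WT. For the interaction they were -0.14 for Mog, -0.082 for Mag, -0.015 for Cnp, -0.10 for Mal, -0.19 for Cldn11 and -0.051 for Ermn. With agreeing time labels they were, for night against day, -0.084 for Mog, -0.022 for Mag and -0.063 for Mal in the average, -0.14 for Mog, -0.010 for Mag and -0.059 for Cnp in KO, and -0.026 for Mog in WT. They were also -0.12 for Mog in the interaction and, between genotypes, 0.060 for Mal by day, -0.11 for Opalin at night and -0.035 for Ermn in the average. Without the trend with length they were -0.053 for Mbp at night against day in WT and -0.025 for Mog in the interaction. Without KO_night 2 and 3 they were -0.13 for Opalin at night and -0.0023 for Ermn in the average, and without WT_night 1, 2 and 3 -0.023 for Ermn in the average.

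With 1 library left out, values that crossed 0 ran, between genotypes, from -0.084 to 0.037 for Mal by day, -0.0053 to 0.071 for Ermn in the average and -0.014 to 0.17 for Opalin at night. For night against day they ran from -0.037 to 0.015 for Mobp, -0.0084 to 0.058 for Mog, -0.023 to 0.057 for Mag and -0.0016 to 0.083 for Mal in the average, -0.030 to 0.10 for Mog and -0.0084 to 0.15 for Mag in KO, and -0.029 to 0.047 for Mbp, -0.025 to 0.070 for Mog, -0.082 to 0.012 for Mag, -0.0038 to 0.071 for Cldn11 and -0.033 to 0.15 for Opalin in WT. The interaction ran from -0.043 to 0.089 for Mog.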
